A study of Homo sapiens with 8 samples.

Results

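Of the 9535 genes named on the arrays, 10 genes of very large proteins outside the kinases were described in depth, namely HERC1, HERC2, UBR4, BIRC6, MDN1, VPS13A, VPS13D, HTT, DYNC1H1 and LRBA, together with every probe annotated to them, which made 12 of the 14479 probes. The genes had been chosen by their measured change from input, because they were higher in the pull-downs of both miR-23b and miR-27a than in the matching inputs. Their pull-down and input values, and the counts past a threshold made from them, are therefore a description that supports nothing. The comparisons between the replicate numbers, although made from the same arrays and so not free of the choice, were not used in it. Nor was the difference between the miRNAs itself, although a choice of genes that are higher with both favours genes with like changes. All 10 genes had a probe in the table and no filter on low values was applied, so that all 12 probes are accounted for.

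The arrays were 1-colour Illumina expression arrays of RNA from HEK293T, a transformed cell line of human embryonic kidney origin that carries the SV40 large T antigen. Every culture, inputs included, had received 200 pmol of a biotin-labelled synthetic duplex of miR-23b or of miR-27a with a lipid-based reagent, and cells were collected 24 h later. The 4 groups of 2 arrays were the miR-23b pull-down, the miR-23b input, the miR-27a pull-down and the miR-27a input, where a pull-down holds RNA recovered on streptavidin beads and numbered replicates 1 and 2 occur in each group. No arrays of a control duplex were analysed here, so that RNA held on the beads through the duplex and RNA held in any other way cannot be told apart. The labels do not say whether the replicate numbers stand for separate cultures, so that the p-values cover the spread among these arrays alone, part or all of which may be technical.

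A miRNA guides an Argonaute protein to messenger RNAs mainly through its seed, the bases from position 2 to position 8 counted from the 5′ end, which pair with complementary sites that lie mostly in 3′ untranslated regions. A biotin tag on the duplex allows the miRNA, and RNA bound with it, to be recovered on streptavidin. The 10 genes code for some of the largest proteins of human cells, most of them scaffolds or enzymes built from long repeats, and their messenger RNAs have correspondingly long coding sequences. HERC1, HERC2, UBR4 and BIRC6 are ubiquitin ligases, MDN1 and DYNC1H1 are AAA+ ATPases, VPS13A and VPS13D are bridge-like lipid transfer proteins, and HTT and LRBA are scaffolds for vesicle traffic.

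The mature sequences of both miRNAs are shown because every comparison turns on them. They were taken from RefSeq (GRCh38.p14) and the seed is in capitals. The labels name no arm, and the 3p arms are given because the names without an arm usually stand for them. miR-23b-3p lies at chr9:95085265-95085287 on the plus strand and miR-27a-3p at chr19:13836447-13836467 on the minus strand.
hsa-miR-23b-3p: aUCACAUUgccagggauuaccac
hsa-miR-27a-3p: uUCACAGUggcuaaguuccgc
The seeds are identical at 6 of 7 bases, with an unbroken shared run from base 2 to base 6. Whether the transcripts of the 10 genes hold matches to either seed was not examined.

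Across arrays the lowest value was between 7.18 and 7.36 and the median between 9.09 and 9.12, all on a log2 scale. Pearson correlations across probes, which are not independent replicates, were 0.955 to 0.984 over 6 pairs of pull-downs, 0.916 to 0.951 over 16 pairs of a pull-down and an input, and 0.979 to 0.996 over 6 pairs of inputs. Of the markers of HEK293T cells all 7 were in the table, with mean levels from 7.69 for KRT18 to 12.7 for VIM. Of 5 defining markers of other cell types 2 were in the table, ALB at 8.08 and COL1A1 at 7.70, near the bottom of the scale. The HEK293T markers KRT18 and IGF2BP1 (8.04) were as dim, so that the levels do not separate the sets. ALB fell by 0.65 in the miR-27a pull-down and COL1A1 passed in neither. Of the HEK293T markers LIN28B rose with both miRNAs, KRT8 and KRT18 fell with both, and VIM fell with miR-27a. The arrays were of bulk RNA, in whose levels fewer cells that hold a transcript and less of it per cell cannot be told apart. A change from input compares RNA recovered on the beads with input RNA, and is not read as either.

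Averaged over both miRNAs, the ubiquitin ligases HERC2 and UBR4 had the largest log2 changes of the genes described, at 2.40 and 2.17. The ligases HERC1 (1.46) and BIRC6 (1.32) lay below MDN1 (1.58) and VPS13D (1.53). HERC2, whose product assembles repair factors at DNA breaks, had levels of 12.68 and 9.67 in pull-down replicates 2 and 1 of miR-23b, against 9.30 and 8.58 in its input replicates 2 and 1. With miR-27a the HERC2 levels were 12.70 and 10.54 in the pull-downs, against 9.25 and 8.85 in the inputs. Pull-downs and inputs did not overlap for either miRNA, and in both pull-downs the replicate 2 array was far above the replicate 1 array. The log2 change was 2.24 ± 0.96 (SE) with miR-23b and 2.57 ± 0.96 with miR-27a, an apparent 4.71-fold and 5.92-fold, the 2nd and 7th largest of the 14479 probes. RefSeq lists 11 HERC2 pseudogenes, 7 of them transcribed, and 0 probes of the table were named after one. Whether the HERC2 probe also matches a pseudogene was not examined, so that the source of its signal is uncertain.

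UBR4, an N-recognin that marks proteins with destabilising N-termini, was the brightest of the 12 probes, with a mean level of 11.07. Its levels were 13.06 and 11.0 in pull-down replicates 2 and 1 of miR-23b, against 10.20 and 9.69 in the inputs. With miR-27a they were 13.01 and 11.53 in the pull-downs, against 10.14 and 9.91 in the inputs. All 4 pull-down arrays thus exceeded all 4 input arrays, by log2 changes of 2.08 ± 0.66 with miR-23b and 2.25 ± 0.66 with miR-27a, an apparent 4.24-fold and 4.75-fold.

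HERC1, which carries exchange-factor-like repeats beside its ligase domain, had levels of 11.43 and 9.56 in pull-down replicates 2 and 1 of miR-23b, against 9.34 and 8.92 in the inputs. With miR-27a its levels were 11.32 and 10.14 in the pull-downs, against 9.22 and 9.12 in the inputs. Both replicate 2 pull-downs stood highest and the groups did not overlap. BIRC6, an inhibitor-of-apoptosis protein that joins a ubiquitin-conjugating and a ligase activity in 1 chain, had 10.41 and 9.22 in the miR-23b pull-downs, against 8.59 and 8.62 in the inputs. Its levels with miR-27a were 10.40 and 9.74 in the pull-downs, against 8.73 and 8.57 in the inputs. The groups of BIRC6 did not overlap either, and its inputs lay close together. The log2 changes of HERC1 were 1.36 ± 0.58 (miR-23b) and 1.55 ± 0.58 (miR-27a), and those of BIRC6 were 1.21 ± 0.37 and 1.42 ± 0.37.

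**Figure D1:**
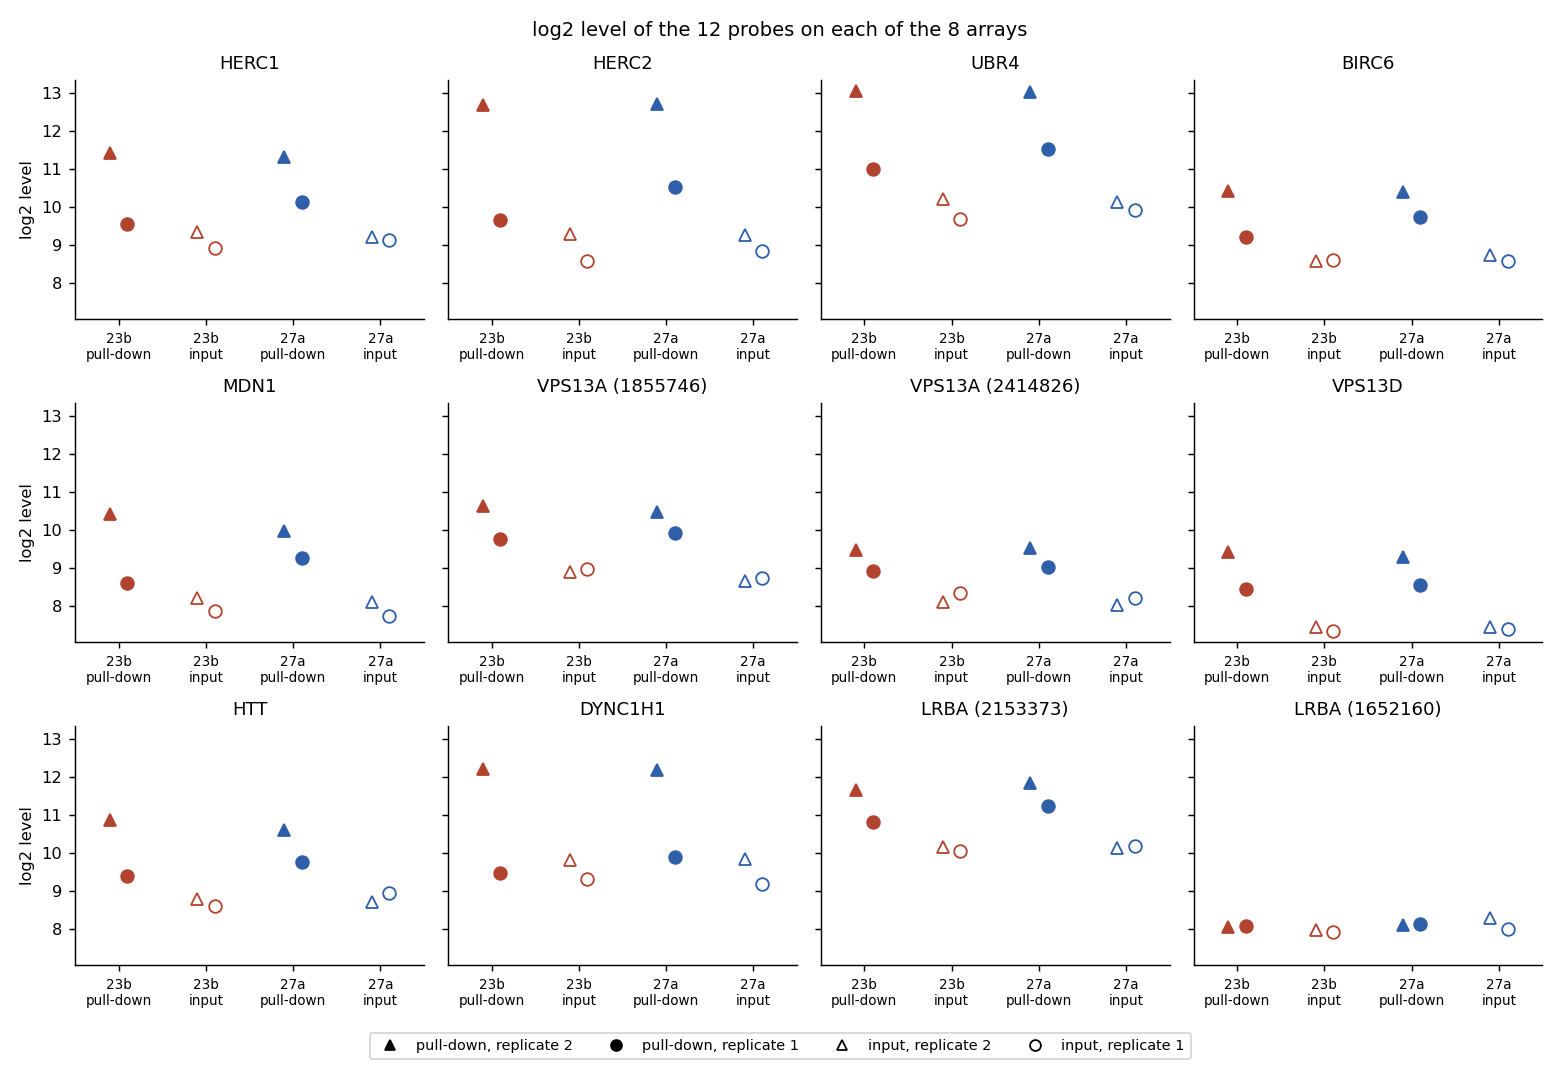
Log2 level (deposited scale) of the 12 probes of the 10 genes on each of the 8 arrays, with miR-23b in red, miR-27a in blue, pull-downs filled, inputs open, replicate 2 as triangles and replicate 1 as circles. In 11 of the 12 probes both replicate 2 pull-downs lie above the other 6 arrays, against 7.98% of all probes. The exception is the dimmer LRBA probe, whose arrays lie between 7.92 and 8.28.

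The AAA+ ATPases differed in how clearly their pull-downs left the inputs. MDN1, which strips assembly factors from precursors of the large ribosomal subunit, had levels of 10.43 and 8.59 in pull-down replicates 2 and 1 of miR-23b, against 8.22 and 7.86 in the inputs. Its levels with miR-27a were 9.98 and 9.25 in the pull-downs, against 8.11 and 7.73 in the inputs. The MDN1 changes were 1.47 ± 0.53 with miR-23b and 1.70 ± 0.53 with miR-27a, with no overlap. DYNC1H1, the heavy chain of cytoplasmic dynein that drives transport towards microtubule minus ends, had 12.20 and 9.48 in the miR-23b pull-downs, against 9.81 and 9.32 in the inputs. Its replicate 1 pull-down therefore lay between the inputs, the only overlap of pull-down and input with miR-23b among the 12 probes. With miR-27a its levels were 12.18 and 9.89 in the pull-downs, against 9.84 and 9.19 in the inputs, so that replicate 1 cleared the higher input narrowly. The DYNC1H1 changes of 1.28 ± 0.93 and 1.52 ± 0.93 accordingly had errors nearly as large as those of HERC2.

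The lipid transfer genes had smaller errors than the ligases and the ATPases. VPS13A, the gene affected in chorea-acanthocytosis, had 2 probes. The brighter (ILMN_1855746) had levels of 10.62 and 9.76 in pull-down replicates 2 and 1 of miR-23b, against 8.89 and 8.97 in the inputs, and 10.47 and 9.91 in the miR-27a pull-downs, against 8.65 and 8.74 in the inputs. The dimmer (ILMN_2414826) had 9.47 and 8.92 in the miR-23b pull-downs, against 8.11 and 8.33 in the inputs, and 9.52 and 9.01 in the miR-27a pull-downs, against 8.03 and 8.2 in the inputs. Both VPS13A probes had no overlap. Their changes were 1.26 ± 0.28 and 0.97 ± 0.23 with miR-23b and 1.49 ± 0.28 and 1.15 ± 0.23 with miR-27a, brighter probe first.

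VPS13D, which takes part in clearance of mitochondria, had inputs close to the lowest values of the arrays. Its levels were 9.42 and 8.45 in pull-down replicates 2 and 1 of miR-23b, against 7.44 and 7.33 in the inputs, and 9.29 and 8.56 in the miR-27a pull-downs, against 7.43 and 7.39 in the inputs. The changes were 1.55 ± 0.33 with miR-23b and 1.52 ± 0.33 with miR-27a. A change measured from so near the bottom of the scale may be understated, and how far the inputs stood above background is unknown here.

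Among the scaffolds, HTT, which codes for huntingtin, had levels of 10.86 and 9.38 in pull-down replicates 2 and 1 of miR-23b, against 8.79 and 8.61 in the inputs. With miR-27a the HTT levels were 10.61 and 9.76 in the pull-downs, against 8.70 and 8.95 in the inputs. The pull-downs did not overlap the inputs, and the changes were 1.42 ± 0.45 and 1.36 ± 0.45. LRBA, a BEACH-domain protein that keeps CTLA4 from lysosomal breakdown, had a pair of probes, annotated to the same transcript record, that differed widely. Its brighter probe (ILMN_2153373) had 11.64 and 10.80 in the miR-23b pull-downs, against 10.16 and 10.05 in the inputs, and 11.84 and 11.24 in the miR-27a pull-downs, against 10.11 and 10.18 in the inputs, which gave changes of 1.12 ± 0.29 and 1.40 ± 0.29.

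The dimmer LRBA probe (ILMN_1652160) was the exception among the 12. It had 8.05 and 8.07 in pull-down replicates 2 and 1 of miR-23b, against 7.96 and 7.92 in the inputs, and 8.10 and 8.12 in the miR-27a pull-downs, against 8.28 and 8.0 in the inputs. Pull-downs and inputs overlapped with miR-27a, and the changes were 0.12 ± 0.14 and -0.03 ± 0.14. The dimmer one had the lowest mean level of the 12, at 8.06, and whether it lay above background was not tested.

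Over the 12 probes the median log2 change was 1.32 with miR-23b and 1.5 with miR-27a, whereas that of all probes was -0.02 and -0.07. As a description only, in limma with Benjamini-Hochberg adjustment over all probes 5 of the 12 passed as higher in the miR-23b pull-down, where 12% of all probes did, and 7 passed in the miR-27a pull-down, where 17.1% did. With the replicate number as a block these counts were 10 (22.1% of all probes) and 11 (24.2%), since the difference between the replicates no longer counted as spread. Both pull-down arrays exceeded both inputs for 11 of 12 probes with each miRNA, against 29.9% of all probes with miR-23b and 31.5% with miR-27a. Because the genes had been picked for these changes, nothing is read from the shares. Single arrays governed the first count: with miR-23b 0 probes passed without pull-down replicate 2 or either input of miR-23b and 10 without its pull-down replicate 1. With miR-27a 1 passed without its pull-down replicate 2 and 4 without either of its inputs.

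Whether the genes separated the miRNAs was asked of the difference between the changes, miR-23b minus miR-27a, which the choice of genes higher with both keeps small in part. It lay between -0.33 for HERC2 and 0.15 for the dimmer LRBA probe. In limma 0 of 12 probes passed (adjusted p = 0.93 to 1.00), where 0.477% of all probes did. At an unadjusted p under 0.05 there were 0 of 12 probes and 1358 of all 14479 probes. With the replicate block 0 of 12 passed (limma, adjusted p = 0.66 to 0.97), where 4.24% of all probes did. The intervals were wide. For HERC2 the 95% interval of the difference was -3.47 to 2.81, for the brighter LRBA probe -1.22 to 0.66 and for VPS13D -1.04 to 1.10, and for 10 of 12 probes the interval reached beyond 1 log2 unit in at least 1 direction (6 of 12 with the replicate block). The pull-downs compared directly, miR-23b minus miR-27a, differed by -0.44 to 0.01. They passed for 0 of 12 probes (limma, adjusted p = 0.64 to 1.00), where 3.47% of all probes passed. At an unadjusted p under 0.05 there were 0 of 12 probes and 2622 of all probes. The inputs of the miRNAs differed by -0.20 to 0.23, with 0 of 12 probes and 0% of all probes past the threshold (0 of 12 at an unadjusted p under 0.05, 76 of all probes).

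**Figure D2:**
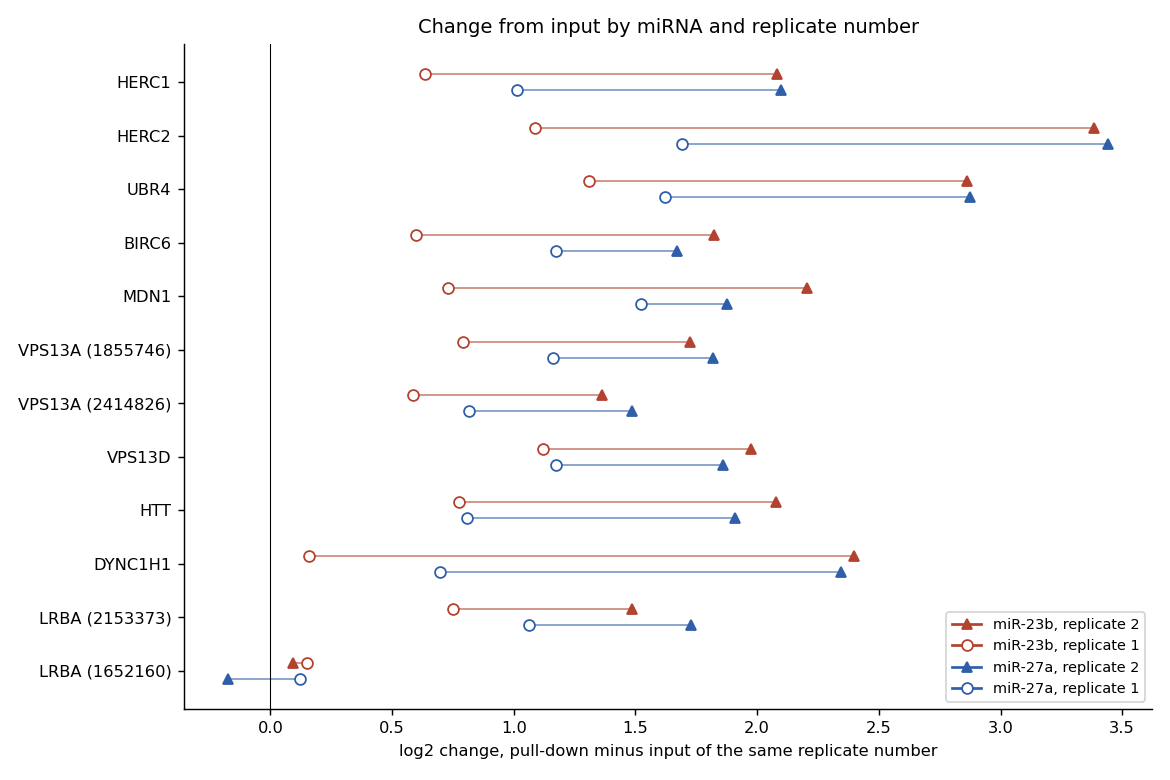
Log2 change, pull-down minus input of the same replicate number, for each of the 12 probes, with miR-23b in red, miR-27a in blue, replicate 2 as filled triangles and replicate 1 as open circles. Replicate 2 lies to the right of replicate 1 for 11 probes with both miRNAs, and within replicate 2 the red and blue points differ by at most 0.33.

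Within replicate numbers the values of the miRNAs lay further apart at replicate 1 than at replicate 2 for most of the probes. The change within replicate 2 had a median over the 12 probes of 2.03 for miR-23b and 1.87 for miR-27a, and within replicate 1 it was 0.74 for miR-23b and 1.11 for miR-27a. The miR-23b change minus the miR-27a change thus had a median of 0.02 within replicate 2 (-0.25 to 0.33) and -0.34 within replicate 1 (-0.79 to 0.03). MDN1 had the widest gap at replicate 1, with 0.73 for miR-23b and 1.52 for miR-27a. HTT, VPS13D and the dimmer LRBA probe went the other way. For HTT the miR-23b and miR-27a changes were 0.77 and 0.81 at replicate 1 and 2.08 and 1.91 at replicate 2. With 1 array of each kind at each number, these gaps have no replicate check.

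The genes differed between the replicate numbers. In the pull-downs, replicate 2 was above replicate 1 in 11 of 12 probes past the threshold in limma, where 12.5% of all probes passed in that direction. HERC2 and DYNC1H1 had the largest and second largest differences of all 14479 probes, at 2.59 ± 0.16 (adjusted p = 4.4e-07) and 2.51 ± 0.12 (adjusted p = 7.0e-08). UBR4 differed by 1.77 ± 0.13, HERC1 by 1.53 ± 0.14, MDN1 by 1.28 ± 0.18, HTT by 1.17 ± 0.14, BIRC6 by 0.93 ± 0.13 and VPS13D by 0.85 ± 0.11. The smallest that passed were those of the brighter LRBA probe (0.72 ± 0.11) and of VPS13A (0.71 ± 0.11 and 0.53 ± 0.10, adjusted p up to 0.0025), and the dimmer LRBA probe did not pass (-0.02 ± 0.11, adjusted p = 0.92). The count was 11 without any single array. The same pull-down arrays entered the choice of the genes, so that the count is not free of it. Each difference is a mean of 1 gap per miRNA, with an error moderated by limma, which draws on the spread of all probes. Such an error can understate how far the miRNAs lay apart. For MDN1 the gap was 1.83 with miR-23b and 0.74 with miR-27a, whereas for the dimmer VPS13A probe it was 0.56 and 0.51.

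**Figure D3:**
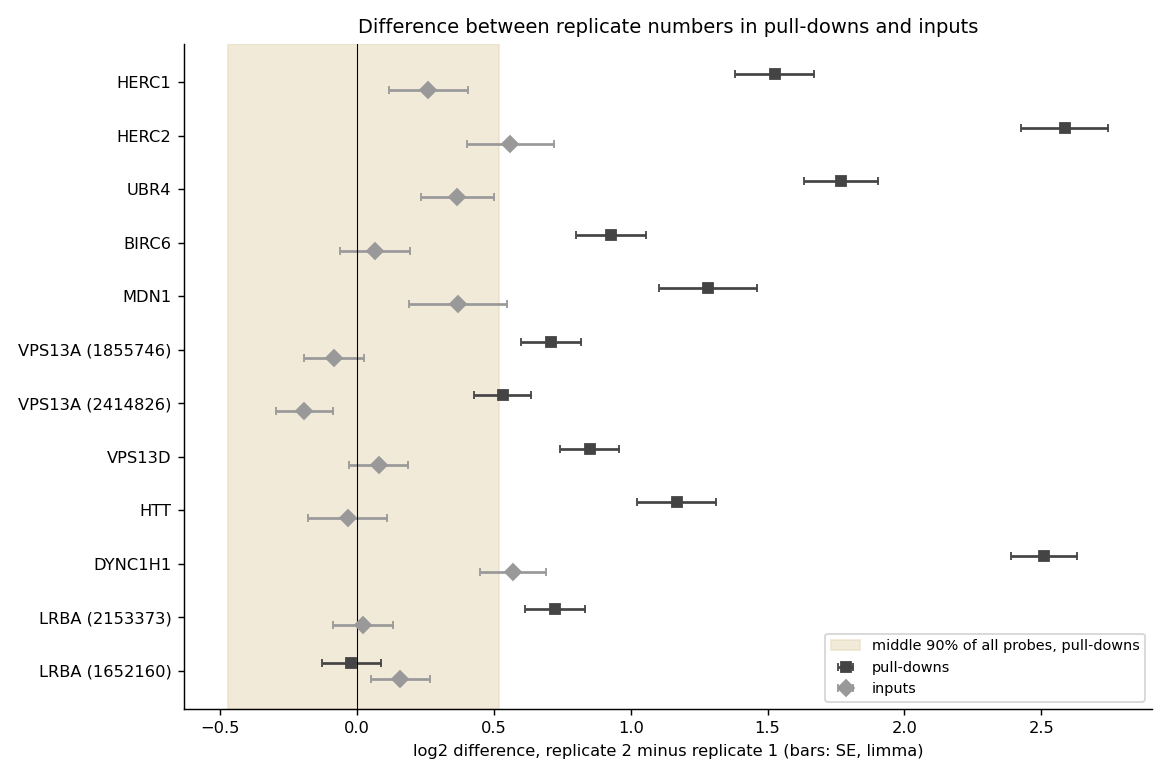
Difference in log2 level between replicate 2 and replicate 1 (mean over both miRNAs with its moderated standard error) for the 12 probes in the pull-downs (squares) and in the inputs (diamonds), with a shaded band for the middle 90% of all probes in the pull-downs. HERC2 and DYNC1H1 reach above 2.5 in the pull-downs and below 0.6 in the inputs.

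In the inputs the same genes differed far less. Replicate 2 minus replicate 1 was 0.57 ± 0.12 for DYNC1H1 (adjusted p = 0.0042) and 0.56 ± 0.16 for HERC2 (adjusted p = 0.019), the 2 of 12 probes that passed in limma, where 12.9% of all probes passed in that direction. UBR4 had 0.37 ± 0.13 (adjusted p = 0.058) and the other probes lay between -0.19 and 0.37. The input calls rested on every input array, with 0 probes left without any 1 of the 4 inputs and 5 without any 1 of the 4 pull-downs.

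The change from input therefore depended on the replicate number. It was larger within replicate 2 than within replicate 1 by 2.03 ± 0.22 for HERC2 (limma, adjusted p = 0.00021), 1.94 ± 0.17 for DYNC1H1 (4.9e-05) and 1.40 ± 0.19 for UBR4 (0.00080). In this direction 11 of 12 probes passed, where 2.46% of all probes did. The same arrays entered the choice of the genes, so that this count is not free of it either. Among lists described below, 4 of 5 giant kinases and 12 of 51 other genes of very large proteins passed likewise, against 2.8% of all genes. MDN1 was nearest the threshold, at 0.91 ± 0.25 (adjusted p = 0.048), and the dimmer LRBA probe did not pass (-0.18 ± 0.15, adjusted p = 0.55). Without either miR-27a input 3 probes passed, those of HERC2, UBR4 and DYNC1H1, and without either miR-23b input 5 did. What differed between the replicate numbers is not given in the labels, and its part in these changes was not tested.

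With both miRNAs the gap between pull-down replicates ran the same way, and it was wider with miR-23b in 11 of the 11 probes that passed, against 70.7% of the 1806 probes that were higher in the replicate 2 pull-downs. For HERC2 the gap was 3.01 with miR-23b and 2.16 with miR-27a, for MDN1 1.83 and 0.74, and for the dimmer VPS13A probe 0.56 and 0.51. The difference between the miRNAs in this gap was not tested. A full order, in which both replicate 2 pull-downs were highest, then the replicate 1 pull-down of miR-27a, then that of miR-23b and then all 4 inputs, was found for 10 of 12 probes and 2.04% of all probes. That order was chosen after the values had been seen. DYNC1H1 and the dimmer LRBA probe departed from it.

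**Figure D4:**
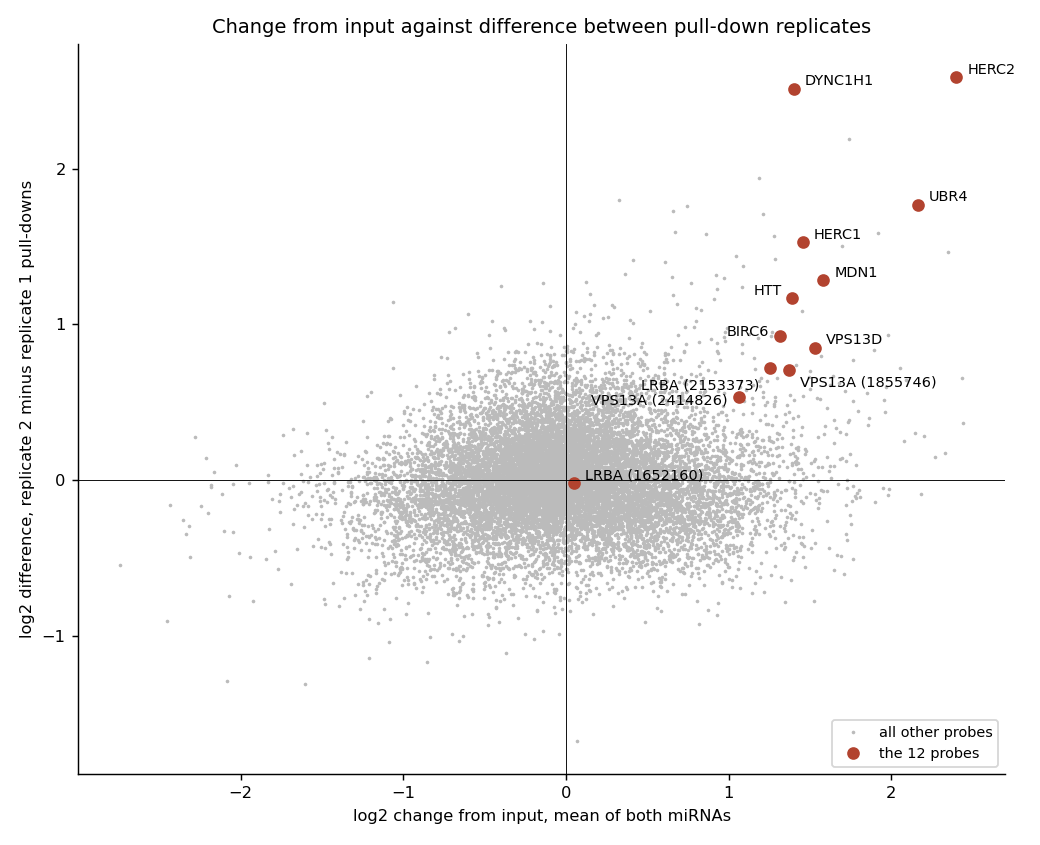
Difference between replicates 2 and 1 in the pull-downs (y axis, log2) against the change from input averaged over both miRNAs (x axis, log2) for the 12 probes, over all 14479 probes in grey. DYNC1H1 lies at a change of 1.40 with a replicate difference of 2.51, and VPS13D at a change of 1.53 with a replicate difference of 0.85.

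Genes with similar changes from input could have unlike replicate differences. DYNC1H1 and VPS13D had similar changes, of 1.40 and 1.53 averaged over the miRNAs, and replicate differences of 2.51 and 0.85 in the pull-downs. HERC2 was high on both measures and the dimmer LRBA probe low on both. Over the 8 arrays the level of each gene (brightest probe) followed the mean of the other 9 with Pearson r from 0.919 for DYNC1H1 to 0.998 for UBR4, a description of 8 shared arrays that partly follows from the choice of genes.

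Among all other named genes, the profiles most like the mean of the 10 over the 8 arrays were those of HECTD4 (r = 0.998), ZFYVE26 (0.993), RBM20 (0.992), ZZEF1 (0.992) and SKIC2 (0.987). Since these 5 were picked by that likeness, the direction of their changes and replicate differences follows from the pick, and the values are a description. HECTD4, a gene of a HECT-domain protein, had changes of 1.63 (miR-23b) and 1.76 (miR-27a) and a replicate difference of 1.5 in the pull-downs. ZZEF1, with 1.38 and 1.53, and ZFYVE26, with 1.24 and 1.29, had smaller replicate differences of 1.09 and 0.95. RBM20, a splicing regulator, had the smallest changes of the 5, at 0.61 and 0.63. SKIC2, a helicase of the complex that feeds RNA to the cytoplasmic exosome, had 0.85 and 1.02.

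Other genes of very large proteins were examined as a list written from general knowledge, of which 51 of 96 were measured. With miR-23b, 7 passed as higher in limma and 0 as lower, where 13.4% of all genes passed as higher and 10.9% as lower. With miR-27a 11 passed as higher and 0 as lower, where the shares of all genes were 18.5% and 16.1%. In that fit, which leaves out the pairing by replicate number, the shares of rises were near those of all genes. With the replicate block 28 of 51 passed as higher with miR-23b (24.5% of all genes) and 19 of 51 with miR-27a (26.4%). Both shares were then above those of all genes, and 0 passed as lower, where 20.2% and 27% of all genes did. Without miR-23b pull-down replicate 1 the count of rises with miR-23b was 13, and without any other single array it was 2 or 3. With miR-27a it was 3 or 4 without either of its inputs or its pull-down replicate 2. Their median changes were 0.41 (miR-23b) and 0.32 (miR-27a), and all genes had medians of 0.02 and -0.04. In the pull-downs 30 of the 51 were higher in replicate 2 than in replicate 1 and 0 were lower, where 13.9% of all genes passed as higher.

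The highest averages over both pull-downs in that list belonged to DYNC2H1, GCN1, BSN and CHD9. DYNC2H1, the heavy chain of the dynein that works in cilia, had 1.42 ± 0.48 with miR-23b (limma, adjusted p = 0.064) and 1.74 ± 0.48 with miR-27a (0.025). CHD9, a chromatin remodeller, rose with both, by 0.95 ± 0.20 (0.013) and 1.18 ± 0.20 (0.0040). GCN1, a sensor of stalled ribosomes, had 1.35 ± 0.52 and 1.21 ± 0.52, and BSN, a presynaptic scaffold, 1.21 ± 0.70 and 1.16 ± 0.70, and neither passed. At the other end were PCNT of the centrosome (-0.07 and -0.33), the histone methyltransferase KMT2C (0.01 and -0.11), the Golgi protein GOLGB1 (-0.14 and 0.07) and the laminin chain LAMA1 (0.01 and -0.01), none of which passed. Measured changes near 0 were thus also found in this list. LAMA1, KMT2C and GOLGB1 had mean levels of only 7.51, 7.76 and 7.76, near the bottom of the scale, and PCNT 9.93. Whether the dim ones lay above background was not tested.

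The giant kinases related to phosphatidylinositol 3-kinase, left out of the 10 by the choice, had changes that ranged widely. Of the 5 measured, 2 passed as higher in the miR-23b pull-down (13.4% of all genes) and 4 in that of miR-27a (18.5%), with median changes of 1.09 and 1.67. With the replicate block 5 passed with each miRNA, where 24.5% and 26.4% of all genes did. PRKDC, whose kinase acts in the joining of broken DNA ends, had 2.25 and 2.46, and TRRAP, a scaffold of histone acetyltransferase complexes, 1.78 and 2.01. ATM, which signals DNA breaks, had 0.86 and 1.67, the growth regulator MTOR 1.09 and 1.16, and SMG1, a kinase of nonsense-mediated decay, 0.41 and 0.68, which passed with neither. In the pull-downs all 5 were higher in replicate 2 than in replicate 1 past the threshold, where 13.9% of all genes were, with 1.46 for PRKDC, which was below HERC2, DYNC1H1, UBR4 and HERC1.

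**Figure D5:**
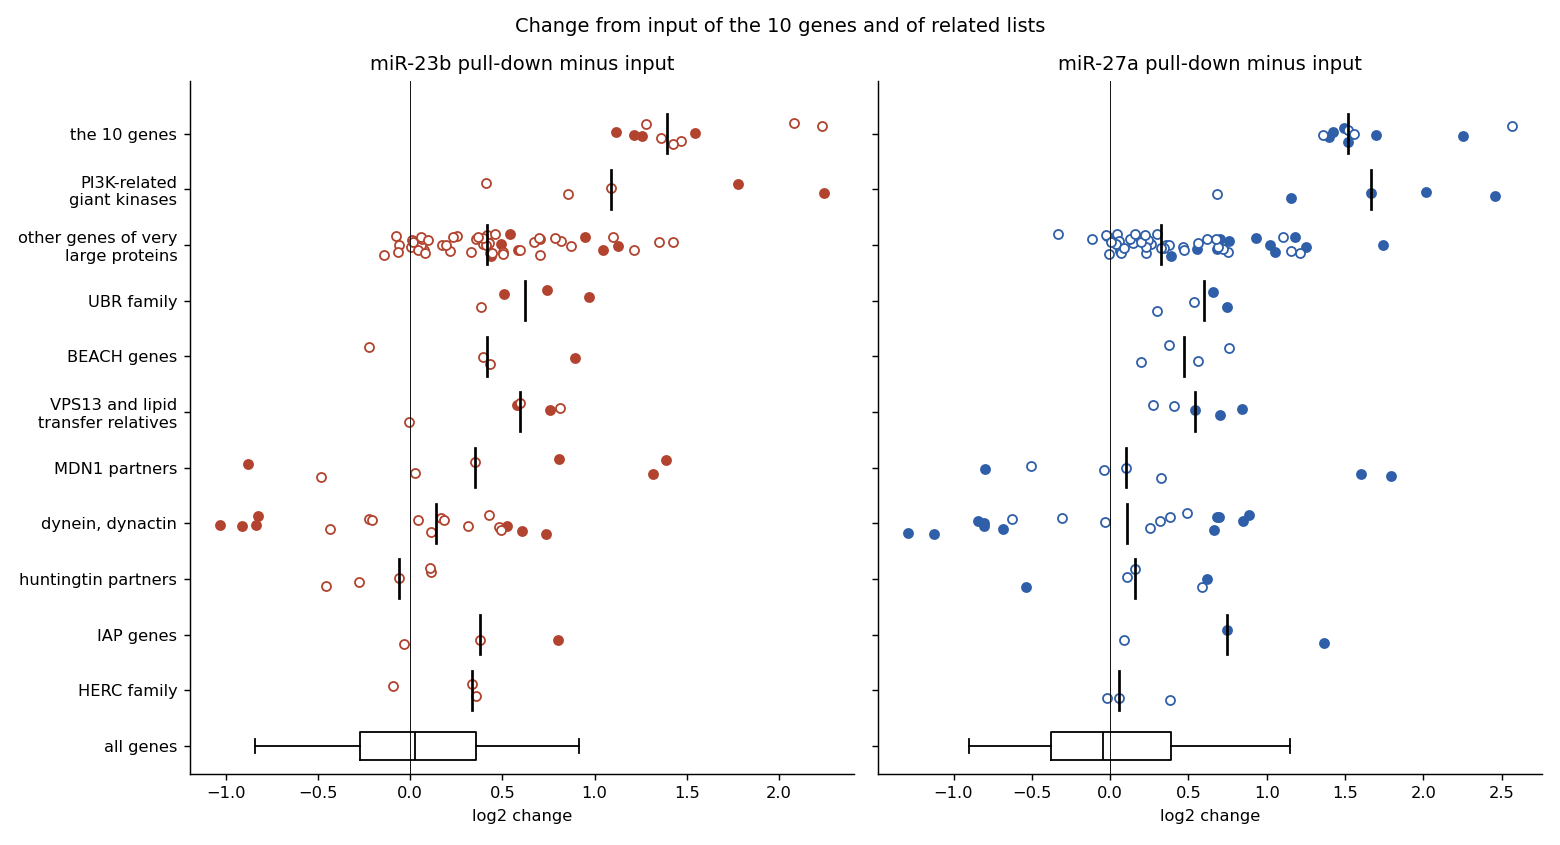
Log2 change from input of the 10 genes and of the related lists (brightest probe per gene), with the miR-23b and the miR-27a pull-downs in separate panels, filled points for an adjusted p under 0.05 a bar at each list's median and, for all genes, a box from the lower to the upper quartile with whiskers to the 5th and 95th percentiles. Medians of the 10 genes are 1.39 and 1.52, and those of the dynein and dynactin genes are 0.14 and 0.11.

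Relatives and partners of the 10 genes, from lists written by family and function, gave mixed values. The counts stand beside 13.4% of all genes higher and 10.9% lower with miR-23b, and 18.5% higher and 16.1% lower with miR-27a, and with 3 to 18 genes measured in a list they say little about it. Of the other HERC genes 0 of 3 passed with either miRNA in limma (HERC4 was at an unadjusted p under 0.05 with miR-27a only), and the medians were 0.33 with miR-23b and 0.05 with miR-27a. Of 4 genes related to UBR4, 3 rose with miR-23b and 2 with miR-27a, among them the N-recognin UBR1 (0.97 ± 0.24 and 0.74 ± 0.24) and FBXO11 (0.51 ± 0.16 and 0.66 ± 0.16), and UBR3 rose with miR-23b only (0.74 ± 0.15, against 0.30 with miR-27a), a difference that did not pass (adjusted p = 0.58). Of 3 further inhibitor-of-apoptosis genes, XIAP rose with both (0.80 ± 0.17 and 1.36 ± 0.17) and BIRC2 with miR-27a (0.75 ± 0.16).

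Partners of MDN1 in ribosome assembly moved both ways. SENP3, a SUMO protease, rose by 1.32 ± 0.16 and 1.80 ± 0.16, NOL9, a polynucleotide kinase, by 1.39 ± 0.35 and 1.60 ± 0.35, and TEX10 by 0.81 ± 0.24 with miR-23b, whereas WDR18 fell by 0.88 with miR-23b and by 0.80 with miR-27a. Of 5 further lipid transfer genes, BLTP2 rose with both (0.76 ± 0.15 and 0.54 ± 0.15), BLTP3A with miR-23b (0.58 ± 0.16) and VPS13C and ATG2A with miR-27a (0.70 ± 0.20 and 0.84 ± 0.26). VPS13C also stood in the list of very large proteins.

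Subunits and regulators of dynein and dynactin changed in both directions. Of the 18 measured, 3 rose and 4 fell with miR-23b, and 5 rose and 6 fell with miR-27a, with medians of 0.14 and 0.11, where 13.4% and 18.5% of all genes rose and 10.9% and 16.1% fell. DYNLRB1 and DYNLT1, light chains of dynein, fell by 0.84 and 0.92 with miR-23b and by 1.12 and 0.85 with miR-27a, and DCTN3 of dynactin fell by 1.03 and 1.29. The light chain DYNLL1 fell by 0.81 with miR-27a, with 0.16 ± 0.14 for miR-23b. Among the rises, named after their values had been seen, were DCTN5 of dynactin (0.60 ± 0.15 and 0.68 ± 0.15) and the light intermediate chain DYNC1LI2 (0.52 ± 0.16 and 0.69 ± 0.16) with both miRNAs, and the regulator PAFAH1B1 (0.84 ± 0.18) and DYNLT3 (0.89 ± 0.23) with miR-27a. Of 5 partners of huntingtin 0 passed with miR-23b (limma, 1 at an unadjusted p under 0.05), and with miR-27a OPTN rose (0.62 ± 0.14) and F8A1 fell by 0.54. Of 4 other BEACH genes WDR81 rose with miR-23b (0.89 ± 0.27), and with miR-27a 0 passed (limma, 1 at an unadjusted p under 0.05). The difference between the miRNAs passed for 0 genes of any of these lists, where 52 of all genes passed.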

How the data were processed

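The deposited table held 1 column per array and 14479 probes on a log2 scale, deposited by the authors, and the submitters' processing notes name lumi 2.2.1. Its transformation, its normalization and how probes were kept were not given in the sources used here, so that folds are apparent folds and each change is set against the rest of its array. A second table of non-normalized signals was not used, because its 8 signal columns matched no sample by name, and the background correction planned for it was not run.

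Probes were named from the platform annotation (12008 with 1 gene, 2 with several, 2469 with none), through RefSeq of GRCh38.p14, and 0 symbols changed. The brightest probe stood for a gene in lists. A linear model with 4 group means was fitted over 8 arrays (4 residual degrees of freedom) with limma 3.58.1 in R 4.3.3, and a model with the replicate number and its product with pull-down as further terms (2 residual degrees of freedom) gave the replicate comparisons. Tests were two-sided, adjusted by Benjamini-Hochberg over all probes, with a threshold of 0.05, and were checked on simulated data. Errors and p-values were moderated by limma, so that they draw on the spread of all probes as well as that of the probe. In the replicate comparisons the miRNAs served as the replicates. The number of arrays limits the precision.

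Same-numbered arrays deviated together (r = 0.34 to 0.80 over 6 pairs of groups). On these data, rather than on any label, the numbers were treated as pairs in the replicate block and in the replicate comparisons. The main fit with 4 group means, which gave the changes from input with their errors and intervals, left the pairing out. The error of the HERC2 change with miR-23b was 0.96 in the main fit and 0.51 with the block. Alternatives were the replicate block, quantile normalization, a common median, a filter on dim probes, a moderated trend with robust fitting, the brightest probe per gene, and each array left out.

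Genes and lists were chosen with earlier results of these data known. A list by protein length had been planned and was replaced, since no protein table was used here, by a list from general knowledge. All probes of the 10 genes are named. From the list of very large proteins the 4 highest and 4 lowest averages are named, from each family up to 4 genes that passed, and from all other genes the 5 profiles most like the mean of the 10. The giant kinases were added for comparison, and those named were chosen after their values were seen.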

Additional observations from a re-analysis of the deposited data

Results flagged for a closer look

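The change from input differed between the replicate numbers, by limma's test of that difference, for 11 of the 12 probes. It also did for 4 of the 5 giant kinases and 12 of the 51 other genes of very large proteins, against 2.8% of all genes. The change within replicate 2 exceeded that within replicate 1 by 2.03 for HERC2, 1.94 for DYNC1H1, 1.40 for UBR4, 1.27 for HERC1, 1.20 for HTT, 0.91 for MDN1, 0.86 for BIRC6, 0.79 and 0.72 for the probes of VPS13A, 0.77 for VPS13D and 0.70 for the brighter probe of LRBA. Adjusted p-values ranged from 4.9e-05 to 0.048, and the direction was the same with both miRNAs for each of these 11 probes. Without either miR-27a input only HERC2, UBR4 and DYNC1H1 passed. The same arrays entered the choice of the genes, so that the count of 11 is not free of that choice. The cause was not tested. Groups of 2 arrays were too small to check for single arrays that stand apart.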

How the results depend on the processing

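With the replicate number as a block, which takes the pairing of the arrays into account, 10 of the 12 probes passed as higher in the miR-23b pull-down and 11 in that of miR-27a, in place of 5 and 7 (a description, since these changes chose the genes), and of the 51 other genes of very large proteins 28 and 19, in place of 7 and 11. The block left the counts of 0 for the comparisons between the miRNAs as they were. Leaving out 1 array at a time gave 0 to 10 probes higher in the miR-23b pull-down and 1 to 10 in that of miR-27a, medians of 0.69 to 2.10 with miR-23b and of 1.09 to 1.83 with miR-27a, 0 to 5 probes that differed between the replicates in the inputs, 11 in the pull-downs and 3 to 11 in the change from input, and 2 to 13 and 3 to 13 of the other very large proteins as higher. The lowest median with miR-23b, 0.69, came without its pull-down replicate 2 and the highest, 2.10, without its pull-down replicate 1. MDN1 lost its dependence on the replicate number with a common median (adjusted p = 0.055) and with the brightest probe per gene (0.075). Quantile normalization, a common median, the dim filter, the moderated trend and the brightest probe otherwise left each count over the 12 probes within 1.5 times of its value, and no direction of a called value turned. With the block the genes past the threshold with miR-23b numbered 5 of the kinases (2 without it), 11 of dynein and dynactin (7), 4 of the lipid transfer genes (2), 2 of the BEACH genes (1), 1 of the huntingtin partners (0) and 1 of the HERC genes (0), and with miR-27a 1 of the BEACH and 1 of the HERC genes (0 and 0). These counts pool rises and falls, and the 11 dynein and dynactin genes were 6 rises and 5 falls. With the block 24.5% of all genes rose and 20.2% fell with miR-23b, and 26.4% rose and 27% fell with miR-27a. With single arrays left out, the kinases numbered 0 to 4 with miR-23b and 1 to 4 with miR-27a, dynein and dynactin genes 2 to 7 and 6 to 11, UBR relatives 0 to 3 and 0 to 2, further inhibitor-of-apoptosis genes 0 to 1 and 1 to 2, MDN1 partners 2 to 3 and 1 to 3, lipid transfer genes 0 to 2 and 0 to 3, huntingtin partners 0 and 0 to 3, and BEACH genes 0 to 2 with each. The shares of all genes with single arrays left out are not given here, so that nothing is read from those list counts. The brightest probe already stood for each gene in the lists.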
